A study of Mus musculus with 36 samples.

Results

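Transcripts of 9 genes through which nuclear receptors repress or activate transcription were followed in the livers of adult male mice: *Ncor1*, *Hdac3* and *Tbl1xr1* of the corepressor complex, *Ncoa1*, *Ncoa2* and *Ncoa3* of the p160 coactivators, the Mediator subunit *Med1*, and *Ppargc1a* and *Ppargc1b*, the PGC-1 coactivators. They were taken by gene name from a count table of 54532 genes, and all 9 passed the filter on low counts that left 17994 genes. The table held 36 livers, 1 per mouse. The 18 mice labelled WT (THRB-WT) were heterozygous carriers of the *Thrb* knockout allele, so they had 1 functional copy of the gene, and the 18 mice labelled KO (THRB-KO) were homozygous. The knockout covers both isoforms of the receptor in the whole body and in every cell type, so the liver was compared in animals that lacked the receptor in all other tissues too. Both genotypes had the C57Bl/6NCrl background, ate chow at will and were kept in light/dark cycles, and 3 mice of each genotype were sampled at zeitgeber time (ZT, hours after lights on) 2, 6, 10, 14, 18 and 22, of which the last 3 lie in the dark phase. Group values rest on different mice at each time, since no mouse was sampled more than once.

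Thyroid hormone receptors sit on DNA with or without hormone. Without hormone they bind the corepressor NCoR1, which brings the deacetylase HDAC3 and the adaptor TBLR1 to the gene. With hormone this complex is exchanged for p160 coactivators, which recruit histone acetyltransferases, and for Mediator, whose MED1 subunit contacts the receptor and links it to RNA polymerase II. PGC-1alpha and PGC-1beta are coactivators whose amount is itself regulated; in liver they are known for gluconeogenesis, mitochondrial biogenesis and lipid metabolism.

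The libraries held between 29063273 and 42530551 counts, and the members had from 1529 to 2656 counts per library for *Ncor1* down to 41 to 253 for *Ppargc1b*. *Thrb* itself cannot check the genotype labels, since counts per gene do not separate the altered allele (28.9 ± 3.69 CPM, normalized counts scaled to a common library size, in THRB-WT and 31.5 ± 2.70 in THRB-KO, SD, n = 18 each). The hepatocyte markers (10 genes, among them *Alb* and *Ttr*) summed to between 74350 and 105009 CPM in every liver, while markers of Kupffer, endothelial, stellate, bile duct, lymphoid and erythroid cells were all detected at lower sums, and no marker of any of the 7 lists was called between genotypes. In whole liver, fewer cells of a type and less RNA per cell cannot be told apart.

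Per gene length, the core of the corepressor complex stood highest. In THRB-WT livers *Hdac3*, the deacetylase, stood highest, with a level of 9.44 ± 0.813 RPKM (reads per kilobase of the gene length in the table scaled to library size, mean ± SD, n = 18), and *Ncor1*, its scaffold, followed with 4.65 ± 0.402 RPKM. *Ncoa3* at 3.05 ± 0.319 RPKM, *Tbl1xr1* at 3.02 ± 0.293 RPKM and *Med1* at 2.71 ± 0.338 RPKM came next, and these 3 neighbours lay within one another's spread. *Ncoa2* (1.79 ± 0.239 RPKM) and *Ncoa1* (1.63 ± 0.235 RPKM) likewise overlapped. *Ppargc1a* (0.883 ± 0.248 RPKM) and *Ppargc1b* (0.736 ± 0.440 RPKM) were lowest, and their order depended on sampling time. In THRB-WT at ZT22, *Ppargc1a* measured 0.831, 0.752 and 0.879 RPKM, above *Ppargc1b* with 0.408, 0.328 and 0.443 RPKM. At ZT6 it was lower in every THRB-WT mouse, with 0.613, 0.927 and 1.06 RPKM against 0.987, 1.41 and 1.47 RPKM. No THRB-WT mouse had less *Hdac3* than the highest level of *Ncor1*, nor less *Ncor1* than the highest level of *Ncoa3*. The order of the 9 mean levels in THRB-KO livers was the same, from *Hdac3* at 9.13 ± 0.585 RPKM to *Ppargc1b* at 0.794 ± 0.496 RPKM. The gene length joins the exons of all isoforms, so a gene with long alternative exons reads lower per length.

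**Figure D1:**
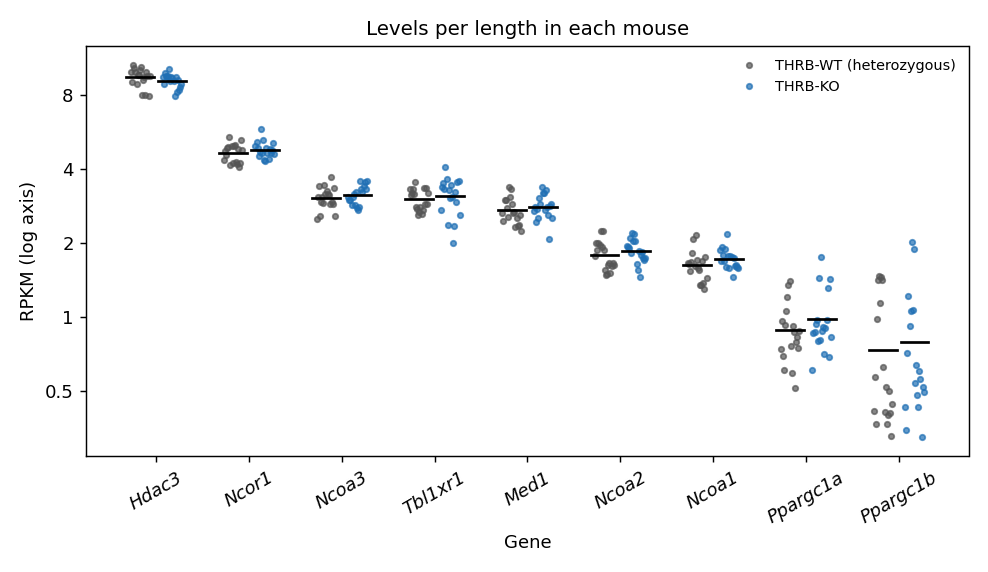
Level per gene length (RPKM, log axis) of the 9 genes in each of the 18 THRB-WT (grey) and 18 THRB-KO (blue) mice, ordered by the THRB-WT mean; each point is a mouse and black lines are means. *Hdac3* and *Ncor1* stand above the other genes in both genotypes, and *Ppargc1b* has the widest spread.

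The first comparison asked whether transcript levels of the cofactors differ between the genotypes. Their proteins were not measured here. None of the 9 genes was called between genotypes (edgeR quasi-likelihood test with sampling time as a factor, adjusted p under 0.05 over all tested genes), and none reached an unadjusted p under 0.05, by edgeR or by a DESeq2 likelihood ratio test; of all tested genes, 0.950% were called by edgeR. The adjusted p-values by edgeR ran from 0.445 for *Ncoa2* to 0.828 for *Tbl1xr1*. The intervals bound the genotype difference averaged over sampling times, not a difference at a single time. For *Ncor1* the level in THRB-KO was 1.03 times that in THRB-WT, with a 95% interval of 0.977 to 1.09, and for *Hdac3* 0.967 times, with an interval of 0.919 to 1.02. *Tbl1xr1* (1.03 times, 0.950 to 1.12), *Ncoa3* (1.03 times, 0.961 to 1.10) and *Med1* (1.04 times, 0.979 to 1.10) had wider intervals than *Ncor1* and *Hdac3*. *Ncoa1* (1.07 times, 0.994 to 1.14) and *Ncoa2* (1.05 times, 0.998 to 1.10) had intervals that only just included no change. For the PGC-1 genes the bounds were wider, at 1.12 times with 0.966 to 1.30 for *Ppargc1a* and 1.09 times with 0.942 to 1.26 for *Ppargc1b*.

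The estimated difference was positive for 8 of the 9 genes, with a median log2 fold change of 0.05, against a median of -0.0011 and 49.5% positive over all tested genes. Without the mice lettered b the estimate for *Tbl1xr1* turned to -0.03, which left 7 of 9 positive. These 8 values come from the same 36 livers and are not independent of one another. *Hdac3* was the exception, with a log2 fold change of -0.05 (SE 0.036) and a lower THRB-KO mean at each of the 6 sampling times, although the mice of both genotypes overlapped at every time. Among mice of the same group, *Hdac3* also ran against *Ncor1* (Pearson's r = -0.47 after group means were removed), *Ncoa1* (-0.56), *Ncoa2* (-0.42) and *Ncoa3* (-0.48). Its r was -0.07 with *Tbl1xr1*, -0.08 with *Med1*, 0.23 with *Ppargc1a* and 0.27 with *Ppargc1b*. The part of this spread between mice in the genotype estimates was not tested. The bile duct markers, 5 of which were tested, summed to 45.2 ± 8.83 CPM in THRB-WT and 38.9 ± 6.26 CPM in THRB-KO, and the erythroid markers to 402 ± 178 and 313 ± 136 CPM; their part in the values of the 9 genes was not tested.

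**Figure D2:**
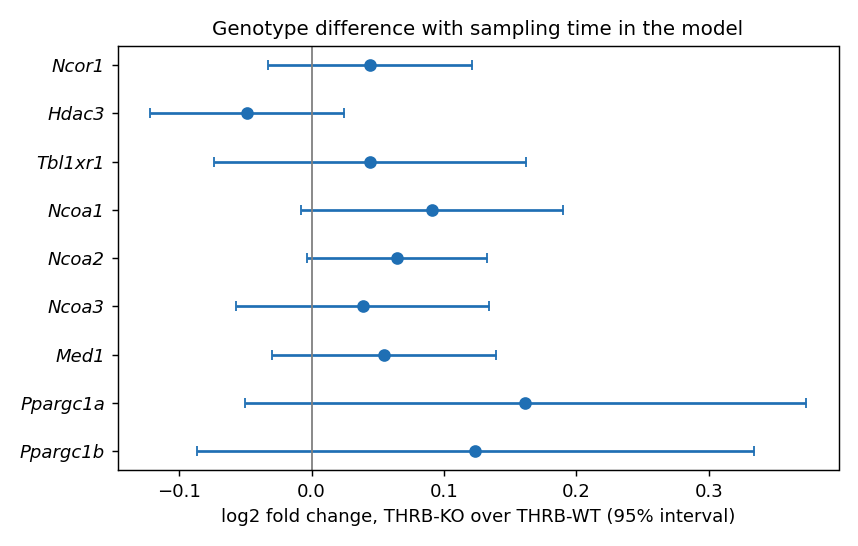
Log2 fold change between THRB-KO and THRB-WT for each gene with sampling time in the model; points are estimates and bars are 95% intervals. Every interval includes 0, and the widest belong to *Ppargc1a* and *Ppargc1b*.

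Single sampling times were then looked at mouse by mouse. In 49 of the 54 pairs of gene and time the mice of both genotypes overlapped. In 5 pairs every THRB-KO mouse lay above every THRB-WT mouse, which happened for 4.92% of such pairs over all tested genes, and in none did every THRB-KO mouse lie below, against 5.04%. At ZT18 *Ppargc1a* measured 5.95, 6.41 and 8.67 CPM in the THRB-KO mice and 5.75, 3.39 and 5.24 CPM in the THRB-WT mice. At ZT14 *Ncoa2* measured 25.7, 24.4 and 29.0 CPM in THRB-KO and 24.3, 23.2 and 23.3 CPM in THRB-WT. These gaps were narrow: the lowest THRB-KO mouse stood just above the highest THRB-WT mouse in both. *Ncoa2* at ZT22 and *Ncor1* and *Ncoa1* at ZT2 made up the other pairs. At ZT2 *Ncor1* measured 63.7, 65.7 and 62.1 CPM against 55.9, 60.5 and 58.5 CPM, and *Ncoa1* 16.0, 14.5 and 16.5 CPM against 14.3, 14.1 and 13.2 CPM. With 3 mice against 3, an exact permutation test cannot reach a p under 0.10, and the test of whether the genotype difference varied with sampling time called none of the 9 genes and 0% of all tested genes (edgeR; 484 genes had an unadjusted p under 0.05, of which none was a member, and DESeq2 called 0).

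Most of the coactivators followed here changed with time of day, as did 15 of 22 other corepressor genes and 15 of 22 other coactivator genes. Of the 9 genes, 6 changed with sampling time (*Ncoa1*, *Ncoa2*, *Med1*, *Ppargc1a*, *Ppargc1b* and, of the corepressor complex, *Tbl1xr1*) in the edgeR test of all 6 times with genotype in the model, which called 45.0% of all tested genes. All 6 had a higher mean over the 3 light-phase times than over the 3 dark-phase times, which held for 50.1% of the called genes and made up 22.6% of all tested genes. These averages hide single times. *Ppargc1a* had its lowest time mean at ZT2, in the light (5.21 CPM over both genotypes, n = 6). *Tbl1xr1* had 25.1 CPM at ZT10 against 28.4 CPM at ZT22. *Med1* had 25.4 CPM at ZT14, above its 23.4 CPM at ZT2 and 24.3 CPM at ZT6. *Ncor1* (adjusted p = 0.316), *Hdac3* (0.196) and *Ncoa3* (0.603) were not called by edgeR. Their highest and lowest time means differed by 1.12, 1.10 and 1.10 times, less than in 92.6%, 95.5% and 95.5% of tested genes. The ratio of the highest to the lowest time mean was 3.57 for *Ppargc1b*, 1.68 for *Ppargc1a*, 1.31 for *Med1*, 1.29 for *Ncoa2*, 1.27 for *Tbl1xr1* and 1.20 for *Ncoa1*. The median ratio over all tested genes was 1.43, and only the PGC-1 genes among the 9 had a larger one. These ratios include noise between mice, which weighs more in genes with few counts, and genes of like counts were not compared.

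**Figure D3:**
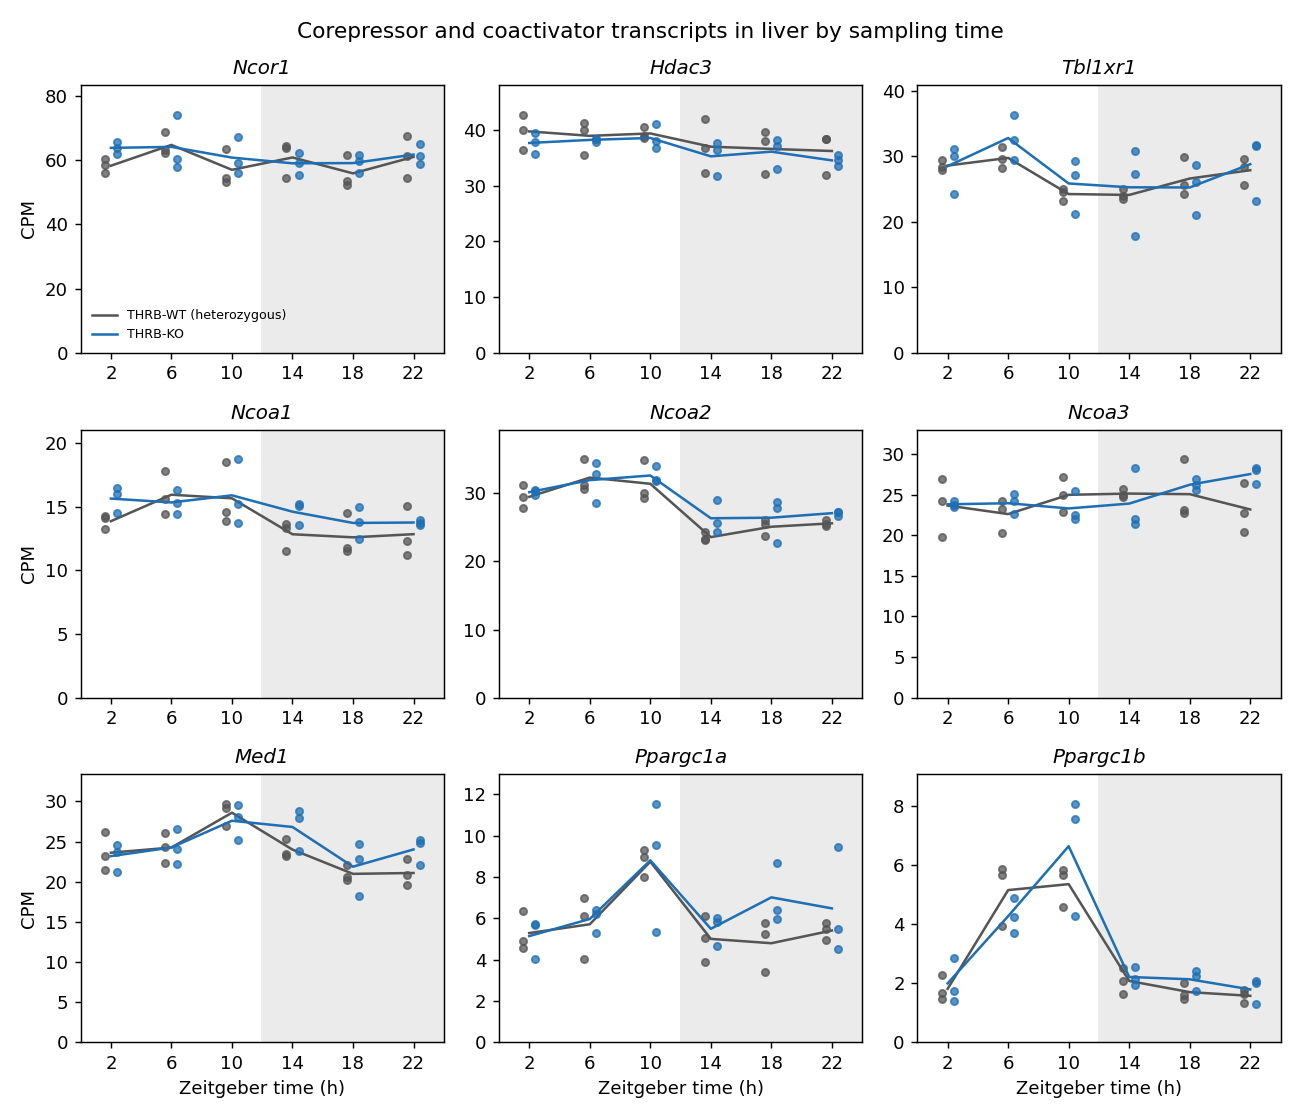
Normalized counts (CPM, linear axes from 0) of each gene against zeitgeber time; points are mice, lines join the means of 3 mice, grey is THRB-WT, blue is THRB-KO, and the shaded area is the dark phase. *Ppargc1b* rises from ZT2 to ZT6 and ZT10 and is low at the other times in both genotypes, while *Ncor1*, *Hdac3* and *Ncoa3* stay nearly level.

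*Ppargc1b*, which encodes PGC-1beta, a coactivator known in liver for lipid synthesis and lipoprotein secretion, had by far the widest swing (adjusted p = 1.21e-11 for time of day, edgeR). In THRB-WT mice it measured 1.66, 2.29 and 1.47 CPM at ZT2, then 3.94, 5.64 and 5.85 CPM at ZT6 and 4.57, 5.81 and 5.65 CPM at ZT10. After lights off it measured 2.50, 1.64 and 2.08 CPM at ZT14, 1.47, 1.60 and 2.01 CPM at ZT18, and 1.63, 1.31 and 1.77 CPM at ZT22. The 6 mice of ZT6 and ZT10 thus lay above all 12 mice of the other times. In THRB-KO mice the values were 1.72, 1.39 and 2.86 CPM at ZT2, 4.87, 3.68 and 4.23 CPM at ZT6, and 8.05, 4.28 and 7.56 CPM at ZT10, followed by 2.15, 2.55 and 1.93 CPM at ZT14, 1.73, 2.42 and 2.23 CPM at ZT18, and 1.30, 2.07 and 1.99 CPM at ZT22. The same separation of ZT6 and ZT10 from the other times held in THRB-KO. At ZT10, 2 of the 3 THRB-KO mice exceeded every THRB-WT mouse, and mouse b was lower than all of them. Over both genotypes the mean was 5.99 ± 1.54 CPM at ZT10 and 1.68 ± 0.329 CPM at ZT22 (SD, n = 6 each), and 4.3% of tested genes had a larger ratio between their highest and lowest times. The time-of-day call held in all 9 alternative settings that were run. The *Ppargc1b* locus also holds the miRNA gene *Mir378a*, which had 0 counts. These poly(A) libraries do not show whether the miRNA is expressed.

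*Ppargc1a* encodes PGC-1alpha, known in liver for the induction of gluconeogenic genes in fasting. In THRB-WT mice it measured 4.92, 6.36 and 4.58 CPM at ZT2, 4.04, 6.11 and 6.98 CPM at ZT6, 7.99, 8.94 and 9.29 CPM at ZT10, 5.03, 3.90 and 6.09 CPM at ZT14, 5.75, 3.39 and 5.24 CPM at ZT18, and 5.48, 4.95 and 5.79 CPM at ZT22. All 3 THRB-WT mice at ZT10 stood above the other 15. In THRB-KO mice the ZT10 values were 9.54, 5.35 and 11.5 CPM, and the ZT22 values 4.53, 9.44 and 5.47 CPM. Here the ZT10 mice did not stand clear, because mouse b at ZT10 fell among the other times and mouse b at ZT22 was nearly as high as the ZT10 mice. The other THRB-KO values were 4.01, 5.67 and 5.74 CPM at ZT2 and 6.19, 6.42 and 5.29 CPM at ZT6. In the dark phase they were 5.80, 6.02 and 4.66 CPM at ZT14 and 5.95, 6.41 and 8.67 CPM at ZT18. Mouse c at ZT18 thus also exceeded mouse b at ZT10. The THRB-KO mouse b at ZT10, low for both PGC-1 genes, had hepatocyte markers summing to 83786 CPM against 94134 and 91288 CPM in mice a and c, and erythroid markers to 310 against 646 and 447 CPM; their part in its PGC-1 values was not tested.

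The time-of-day call of *Ppargc1a* (adjusted p = 0.00427, edgeR) was lost without the mice lettered a (0.121) or c (0.172), each of which removes 12 of the 36 libraries. Within THRB-KO the test of time gave an adjusted p of 0.161 with all mice and 0.0178 without those lettered b. Within THRB-WT it gave 0.0676, and passed the threshold by DESeq2 (0.0251) and in edgeR without the filter on low counts (0.0325). The difference between genotypes was the subject of the interaction test, which did not call the gene.

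The RefSeq promoter table (build GRCm38.p6) had windows for 5 of the 9 genes, *Ncor1*, *Tbl1xr1*, *Ncoa1*, *Med1* and *Ppargc1a*, and none for *Hdac3*, *Ncoa2*, *Ncoa3* and *Ppargc1b*. The 250 bases upstream of the annotated start of *Ppargc1a* (chr5:51567726-51567975, minus strand) are shown because this is the strongest time-of-day change among those 5 genes by fold, and because PGC-1alpha is known for its induction through cAMP response elements (CRE). Capitals mark the letters CGTCA, a CRE half-site, written 5′ to 3′:

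Ppargc1a: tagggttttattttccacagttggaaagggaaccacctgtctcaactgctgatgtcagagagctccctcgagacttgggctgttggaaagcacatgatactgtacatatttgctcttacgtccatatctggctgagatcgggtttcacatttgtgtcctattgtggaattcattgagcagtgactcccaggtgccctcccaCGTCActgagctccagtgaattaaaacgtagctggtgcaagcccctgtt

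The half-site begins 49 bases before the start, and CGTCA on either strand is in 17.8% of the 32851 upstream windows of the table. The full CRE (TGACGTCA, in 1.55% of windows), the E-box (CACGTG, 6.02%), the D-box (TTATGTAA, 0.819%) and the nuclear receptor half-site (AGGTCA, 14.02%), searched on both strands, were found in no upstream window of these 5 genes, and CGTCA in no window but this one. CGTCA is also part of the full CRE. It was added to the search after the window had been read, and a match of letters is a description, not a binding site.

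Among the p160 coactivators, which bind hormone-bound receptors and recruit acetyltransferases, *Ncoa2* changed most clearly (adjusted p = 5.67e-07 for time of day, edgeR, and called in all 9 alternatives). In THRB-WT mice it measured 27.8, 31.3 and 29.4 CPM at ZT2, 31.3, 30.7 and 35.0 CPM at ZT6, and 30.1, 34.9 and 29.3 CPM at ZT10. At ZT14 the values were 24.3, 23.2 and 23.3 CPM, at ZT18 25.5, 26.1 and 23.7 CPM, and at ZT22 25.2, 26.1 and 25.5 CPM. All 9 light-phase mice lay above all 9 dark-phase mice in THRB-WT. In THRB-KO mice the light-phase values ran from 28.6 to 34.5 CPM and the dark-phase values from 22.7 to 29.0 CPM, so that the phases overlapped there. *Ncoa2* thus had a day level and a night level, with time means of 29.8, 32.1 and 32.0 CPM at ZT2, ZT6 and ZT10 and 25.0, 25.8 and 26.4 CPM at ZT14, ZT18 and ZT22 (n = 6 each).

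*Ncoa1* went the same way with a smaller and less firm change (adjusted p = 0.0191, edgeR). Its time means were 14.8, 15.7 and 15.8 CPM in the light and 13.7, 13.2 and 13.3 CPM in the dark (n = 6 each), and single mice of the phases overlapped in both genotypes. The call was lost without the mice lettered a (adjusted p = 0.0889) or c (0.242) and without the filter on low counts (0.0613). *Ncoa3*, the third p160 gene, had time means between 23.3 ± 1.68 CPM at ZT6 and 25.7 ± 2.48 CPM at ZT18 (SD, n = 6), and was the one member whose mean was lower in the light phase, by 0.08 on the log2 scale, without being called. A short stretch of 154 bases of *Ncoa3* overlaps *Sulf2* on the other strand.

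*Med1*, the Mediator subunit that contacts thyroid hormone receptors, was highest at ZT10 (adjusted p = 4.24e-04 for time of day, edgeR, and called in all 9 alternatives). The THRB-WT mice measured 29.7, 27.0 and 29.2 CPM at ZT10 and 20.3, 22.0 and 20.6 CPM at ZT18. The THRB-KO mice measured 25.2, 29.6 and 28.0 CPM at ZT10 and 24.6, 22.8 and 18.2 CPM at ZT18. The groups of ZT10 and ZT18 did not overlap in either genotype, although in THRB-KO the margin was small. Over both genotypes the means were 23.4, 24.3 and 28.1 CPM at ZT2, ZT6 and ZT10 and 25.4, 21.4 and 22.6 CPM at ZT14, ZT18 and ZT22 (n = 6 each), a later course than that of *Ncoa2*.

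Among the members of the corepressor complex followed here, only *Tbl1xr1*, which encodes the adaptor TBLR1, was called for time of day (adjusted p = 0.0282, edgeR). It was highest at ZT6, with 29.6, 28.3 and 31.4 CPM in THRB-WT and 29.5, 36.4 and 32.6 CPM in THRB-KO, and its time mean was lowest at ZT14, with 23.9, 25.0 and 23.5 CPM in THRB-WT and 30.8, 27.3 and 17.8 CPM in THRB-KO. The THRB-WT mice of these times were clear of each other, while THRB-KO mice at ZT14 spanned the lowest value of the gene and one as high as at ZT6. Over all 18 mice the SD of *Tbl1xr1* was 4.76 CPM in THRB-KO and 2.61 CPM in THRB-WT. The call was lost without the mice lettered b (adjusted p = 0.0752) or c (0.219). *Ncor1*, the scaffold, had time means between 57.5 ± 4.06 CPM at ZT18 and 64.4 ± 5.98 CPM at ZT6, and *Hdac3*, the catalytic subunit, between 35.4 ± 2.57 CPM at ZT22 and 39.0 ± 1.60 CPM at ZT10 (SD, n = 6). *Ncor1* overlaps *Ttc19* on the other strand over 12026 bases. Since the libraries do not keep the strand, reads from stretches there that are exons of both genes cannot be told apart. How many reads this concerns was not measured.

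Some markers of other cells also moved with time, beside 45.0% of all tested genes called for time of day. Of the 7 endothelial markers 6 were called for time of day, 5 of them higher in the dark phase, and the list summed to between 88.5 and 181 CPM in the light and between 110 and 217 CPM in the dark. Of the 7 stellate markers 5 were called, 4 of them higher in the dark, with sums between 90.2 and 235 CPM in the light and between 126 and 251 CPM in the dark. Of the 10 hepatocyte markers 5 were called, 2 of them higher in the light. In the remaining lists, 0 of 8 Kupffer, 2 of 6 lymphoid, 1 of 5 erythroid and 3 of 5 tested bile duct markers were called. The part of these markers in the time courses of the 9 genes was not tested.

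The changes were then placed between neighbouring sampling times, in 6 contrasts of the fit over both genotypes that were added after the time courses had been seen. Of the 54 steps of the 9 genes, 7 were called (edgeR, adjusted over all tested genes within each contrast). From ZT2 to ZT6 only *Ppargc1b* moved among the 9, rising by 1.32 on the log2 scale (SE 0.18, adjusted p = 3.16e-06), in a step that called 12.2% of all tested genes. From ZT6 to ZT10 *Ppargc1a* rose by 0.59 (SE 0.18, adjusted p = 0.0351) and *Tbl1xr1* fell by 0.32 (SE 0.10, adjusted p = 0.0413), with 7.97% of all tested genes called.

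The step across lights off, from ZT10 to ZT14, held 3 of the 7 calls and also called more of the tested genes than any other step, 19.5%. *Ppargc1b* fell by 1.48 on the log2 scale (SE 0.18, adjusted p = 2.41e-07), to 0.359 times its ZT10 level. *Ppargc1a* fell by 0.75 (SE 0.18, adjusted p = 0.00263) and *Ncoa2* by 0.36 (SE 0.058, adjusted p = 2.27e-05). *Ncoa1* had a log2 change of -0.20 in this step and missed the threshold (adjusted p = 0.0896). *Med1* moved later, falling by 0.25 from ZT14 to ZT18 (SE 0.072, adjusted p = 0.0328, 6.89% of tested genes called). No member was called from ZT18 to ZT22 or from ZT22 to ZT2, steps that called 1.76% and 1.64% of tested genes.

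The steps of *Ncoa2* and *Ppargc1b* held whichever letter of mice was left out. Those of *Tbl1xr1* and *Med1* were lost without any 1 of the letters, with adjusted p-values from 0.112 to 0.147 for *Tbl1xr1* and from 0.0676 to 0.364 for *Med1*. The rise of *Ppargc1a* was lost without a (0.299) or c (0.242), and its fall without c (0.0770).

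**Figure D4:**
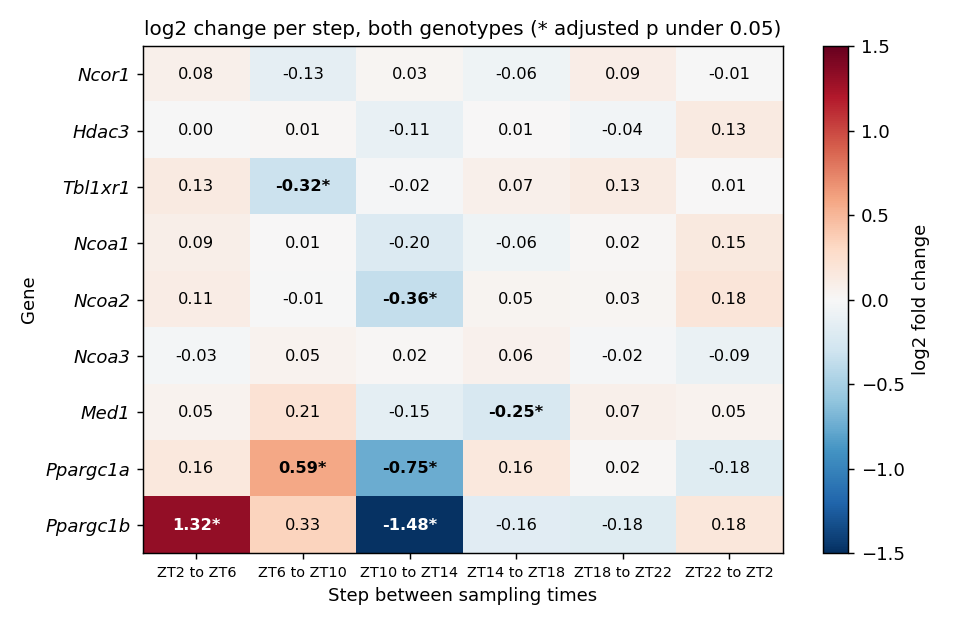
Log2 change of each gene between neighbouring sampling times over both genotypes, red for a rise and blue for a fall; an asterisk marks an adjusted p under 0.05. The 7 marked steps lie between ZT2 and ZT18, and 3 of them are falls from ZT10 to ZT14.

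Each genotype was also tested alone. Sampling time called *Ncoa2*, *Med1* and *Ppargc1b* in THRB-WT, where 26.4% of all tested genes were called, and *Ncoa2* and *Ppargc1b* in THRB-KO, where 24.9% were called. In THRB-KO, *Ncoa2* (adjusted p = 0.00887, edgeR) fell short of the threshold without any 1 of the letters (0.0621 to 0.269) and without the filter on low counts (0.0672). In THRB-WT, *Med1* fell short without any 1 of the letters (0.0563 to 0.291).

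A 24 h sine wave was called for *Ncoa1*, *Ncoa2*, *Med1* and *Ppargc1b* in THRB-WT, with 35.1% of all tested genes called, and for *Ncoa2* and *Ppargc1b* in THRB-KO, with 31.5%. *Ppargc1b* peaked at ZT8.38 ± 0.517 h in THRB-WT and at ZT8.96 ± 0.722 h in THRB-KO (SE, cosinor on log2 CPM), with amplitudes of 0.96 ± 0.13 and 0.84 ± 0.16. *Ncoa2* peaked earlier, at ZT5.85 ± 0.594 h and ZT6.44 ± 0.820 h, with amplitudes of 0.22 ± 0.035 and 0.17 ± 0.037. In THRB-WT *Ncoa1* peaked at ZT7.02 ± 1.08 h with an amplitude of 0.19 ± 0.053, and *Med1* at ZT8.96 ± 0.738 h with an amplitude of 0.19 ± 0.037. Without the mice lettered a, the calls of *Ncoa1* and *Med1* in THRB-WT (adjusted p = 0.0712 and 0.153) and of *Ncoa2* in THRB-KO (0.136) were lost, and *Ncoa1* also without those lettered c (0.218).

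A call in one genotype and not in the other does not show that the rhythms differ. The test of the difference itself called none of the 9 genes and 0% of all tested genes (edgeR; 553 had an unadjusted p under 0.05, none of them a member, and DESeq2 called 0). The peak of *Ppargc1b* in THRB-KO was 0.58 h later than in THRB-WT, with a 95% interval from -1.24 to 2.39 h, and that of *Ncoa2* 0.59 h later, with an interval from -1.48 to 2.66 h. The difference in amplitude was -0.12 for *Ppargc1b* (95% interval -0.53 to 0.30) and -0.052 for *Ncoa2* (-0.16 to 0.051). Shifts of about an hour or more in either direction were therefore within the error for both genes.

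Other genes of these pathways were counted in 4 lists, to be read against the shares over all tested genes. Between genotypes, 0.950% of all tested genes were called and 12.1% had an unadjusted p under 0.05. For time of day, 45.0% of all tested genes were called. Of 22 other corepressor genes none was called between genotypes (1 had an unadjusted p under 0.05), and the median log2 fold change was 0.0024, beside -0.0011 over all tested genes. *Nr0b2*, which encodes the orphan receptor SHP, came nearest, with 52.8 ± 24.3 CPM in THRB-WT and 37.3 ± 19.8 CPM in THRB-KO (SD, n = 18 each, adjusted p = 0.203 by edgeR), ahead of *Sap18* (0.428) and *Ctbp1* (0.430). With time of day 15 of the 22 were called, 8 higher in the light and 7 in the dark. Among the deacetylases *Hdac5* was highest at ZT18 with 79.1 CPM and lowest at ZT10 with 39.4 CPM, whereas *Hdac4* was highest at ZT10 with 10.1 CPM and lowest at ZT22 with 7.13 CPM.

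Of 22 other coactivator genes, 1 was called between genotypes, and the median log2 fold change was 0.04. *Trim24*, a coregulator of nuclear receptors, was higher in THRB-KO (18.9 ± 7.30 CPM against 15.4 ± 5.97 CPM, log2 fold change 0.30, SE 0.076, adjusted p = 0.0498 by edgeR), but this call was lost without any 1 of the letters (0.129 to 0.386) and with sampling times pooled (0.754). *Prmt1* (adjusted p = 0.109) and *Kmt2c* (0.415) followed without being called. With time of day 15 of the 22 were called, 7 higher in the light and 8 in the dark. *Ncoa5* was highest at ZT22 with 29.8 CPM and lowest at ZT10 with 12.7 CPM, and *Smarcd1*, a chromatin remodelling subunit, was 13.6 CPM at ZT22 and 4.72 CPM at ZT10. Both had their minimum at the time at which *Med1*, *Ppargc1a* and *Ppargc1b* had their maximum. *Kat2b*, an acetyltransferase that works with p160 coactivators, was 85.8 CPM at ZT6 and 49.2 CPM at ZT18.

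Of 30 other Mediator subunit genes 29 were tested (*Med10* was too low), and none was called between genotypes, although 6 had an unadjusted p under 0.05; the median log2 fold change was -0.0019. *Med16* came nearest to the threshold, with 18.4 ± 3.92 CPM in THRB-WT and 16.5 ± 2.74 CPM in THRB-KO (adjusted p = 0.0560, edgeR), followed by *Med25* (0.139) and *Med29* (0.196). With time of day 16 of the 29 were called, 8 in each direction. *Med8* and *Med24* were lowest at ZT10, at 31.0 and 15.2 CPM, and highest at ZT22, at 42.0 and 25.0 CPM. At ZT10 *Med1* had its own highest mean, while *Med16* was highest at ZT6 with 22.1 CPM and lowest at ZT18 with 13.5 CPM.

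Of 18 genes known as PGC-1 partners or targets, 1 was called between genotypes, with 6 at an unadjusted p under 0.05 and a median log2 fold change of 0.06. *Foxo1*, a transcription factor that works with PGC-1alpha on gluconeogenic genes, was higher in THRB-KO (29.5 ± 5.37 CPM against 26.1 ± 6.21 CPM, log2 fold change 0.19, SE 0.043, adjusted p = 0.0215 by edgeR), and this call too was lost without any 1 of the letters (0.123 to 0.230) and with sampling times pooled (0.750). *Idh3a* (0.192) and *Atp5b* (0.215) were not called. With time of day 13 of the 18 were called, 7 higher in the light and 6 in the dark. *Foxo1* and *Crtc2*, a CREB coactivator, had their highest means at ZT10, as *Ppargc1a* did, at 38.1 and 46.4 CPM. *Esrra*, the orphan receptor through which PGC-1 acts on mitochondrial genes, was highest at ZT14 with 70.9 CPM and lowest at ZT6 with 50.5 CPM.

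The genes whose log2 CPM followed each member most closely over the 36 libraries were named from 11917 tested genes with a mean of at least 50 counts, as a description. For *Ppargc1b* these were *Actn1* (Pearson's r = 0.93) and *Fgfrl1* (0.93), and for *Ncoa2* *Dlg1* (0.89) and *Gpbp1l1* (0.87). *Ncoa1* was nearest to *Vps13c* (0.85) and *Zmynd11* (0.85), *Ncor1* to *Supt16* (0.85) and *Ndst1* (0.84), *Hdac3* to *Scrn2* (0.81) and *Gnb2* (0.79), and *Med1* to *Ubac1* (0.78) and *Ddx46* (0.77). *Ppargc1a* was nearest to *Pipox* (0.76) and *Fnip2* (0.73), *Ncoa3* to *Lbr* (0.72) and *Toe1* (0.65), and *Tbl1xr1* to *Mrnip* (0.70) and *Dyrk2* (0.70). The libraries share sampling times and RNA preparation. After the mean of each of the 12 groups was removed, the value of *Ppargc1b* with *Actn1* was 0.63 and that of *Ncoa2* with *Dlg1* 0.60, while that of *Ncor1* with *Supt16* was 0.88.

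Among the 9 genes themselves, *Ncoa1* and *Ncoa2* were the closest pair over the 36 libraries (r = 0.76, and 0.57 within groups). *Ppargc1a* and *Ppargc1b* had r = 0.62, and 0.65 within groups, so the mice of a group that were high for one PGC-1 gene tended to be high for the other, as seen at ZT10 in THRB-KO. *Ncoa2* and *Ppargc1b*, both higher in the light phase, had r = 0.67 over all libraries and 0.10 within groups. *Ncor1* and *Ncoa1*, of which only *Ncoa1* was called for time of day, had r = 0.65 and 0.79 within groups.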

How the data were processed

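Poly(A) RNA of 36 livers was sequenced in non-directional paired-end libraries. The authors mapped reads to GRCm38 with HISAT2 and deposited whole-number counts per gene from FeatureCounts, not normalized; versions, annotation release, strand setting and treatment of multi-mapping reads are not given in the sources used here. The deposited gene length column, another annotation value, served for RPKM only. Totals ranged from 29063273 to 42530551 counts, and the lowest chi-square per gene between replicates was 32.7, so no pair of libraries agreed within sampling noise.

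Counts of genes with a sum of at least 100 were normalized by TMM and tested by edgeR 4.0.16 (glmQLFit, glmQLFTest, limma 3.58.1, R 4.3.3), with Benjamini-Hochberg adjustment over 17994 genes and a threshold of 0.05. Time was a factor of 6 levels, or 24 h sine and cosine terms per genotype. CPM used TMM library sizes, log2 CPM a prior count of 2, and cosinors delta-method errors. Scripts were tested on simulated data. No other transcript matched a member with at least 95% identity over 80% of its length (BLAST 2.17.0).

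Members and lists were chosen with earlier results of these data known. From each of 4 lists the 3 genes with the smallest p for genotype and for time and any gene called for genotype were named (1 of these is not reported here), and for each member the 2 genes with the highest correlation. Alternatives were DESeq2 1.42.0, other size factors and filters, robust estimation, pooled times, a block by mouse letter and leaving out each letter.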

Additional observations from a re-analysis of the deposited data

How the results depend on the processing

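No member was called between genotypes, for the interaction or for a rhythm difference under any alternative run. For the genotype comparison, adjusted p-values ran from 0.219 to 0.988 and log2 fold changes from -0.08 to 0.19. The lowest adjusted p was that of *Ncoa1* with the letter as a replicate block, beside 0.467 in the main fit (edgeR). The log2 fold change of *Tbl1xr1*, 0.04 with all mice, ran from -0.030 (without the mice lettered b) to 0.082 (without a), and no other changed sign. The 6 genes called for time of day became 3 to 5 when the mice of 1 letter were left out, *Ncoa2*, *Med1* and *Ppargc1b* staying in each case, and the counts of the other alternatives were 5 or 6. The lowest and highest counts without 1 letter were 2 and 2 for time in THRB-WT, 1 and 2 for time in THRB-KO, 2 and 4 for the 24 h rhythm in THRB-WT, 1 and 2 for that in THRB-KO, and 3 and 6 for the steps. For time in THRB-KO the count was 1 without the filter on low counts; the cause was not tested. The mice share letters (a, b, c) across genotypes, but no source says that a letter marks a litter, batch or day. The deposited column names hold numbers that follow directly on each other in some same-letter mice of opposite genotype and equal sampling time. What these numbers mark is not stated, and the main tests did not pair the mice. Of 18 same-letter pairs 9 had deviations correlated over 0.1 (r from -0.04 to 0.22), and 15 of 18 THRB-WT mice correlated best with their own letter. With the letter as a replicate block the counts were 0 for genotype, 0 for the interaction, 6 for time, 4 for time in THRB-WT (*Ncoa1* being added, adjusted p = 0.0390 against 0.0826 by edgeR), 2 for time in THRB-KO, 4 and 2 for the 24 h rhythms in THRB-WT and THRB-KO, 0 for the rhythm difference and 7 for the steps. Leaving out a letter removes 12 libraries and leaves 2 mice per group; *Ppargc1b* had the fewest counts of the 9 genes, 41 to 253 per library.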
